A study of Homo sapiens with 6 samples.

Results

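Lysyl oxidases and collagen lysyl hydroxylases are the enzymes that cross-link collagen and elastin through their lysine side chains. They were followed here across 6 RNA-seq libraries from 2 human ovarian tumour lines depleted of the RNA-binding protein MEX3A. The group was chosen as the 5 lysyl oxidase genes (LOX, LOXL1, LOXL2, LOXL3 and LOXL4) and the 3 lysyl hydroxylase genes (PLOD1, PLOD2 and PLOD3), and all 8 were among the 39282 gene rows of the deposited tables. LOX was selected on its measured expression, which was much higher with MEX3A depletion in PA-1 and not in TOV21G, and the other 7 genes were chosen by family. The LOX levels are therefore given as a description with no test. All 8 genes were among the 16855 that passed the filter on low counts, which a gene can pass through a single library.

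Of the cell lines, PA-1 came from a teratocarcinoma of the ovary and TOV21G from a clear cell carcinoma. Each gave 1 library with lentiviral hairpin sh-MEX3A#1 (hairpin 1), 1 with sh-MEX3A#2 (hairpin 2) and 1 with the scramble hairpin sh-Ctrl (control), so every library, controls included, came from cells infected with a hairpin virus. The lines were grown in different media. No label states separate cultures for the libraries within a line. The spread behind each p-value is that between the 2 hairpins of each line, which are different reagents. It mixes hairpin differences with technical variation and may leave out variation between cultures.

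Hydroxylation of collagen lysines by the PLOD enzymes takes place in the endoplasmic reticulum and decides which kind of cross-link can form. LOX and its relatives are secreted, copper-dependent amine oxidases that convert lysine and hydroxylysine to reactive aldehydes, which then join neighbouring chains. Both LOX and PLOD2 are textbook targets of the hypoxia-inducible factor HIF, and LOX is also a known target of TGF-beta signalling.

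The promoters of LOX and PLOD2 are shown because LOX stood furthest from its control in PA-1 and PLOD2 lay on opposite sides of the control in the 2 lines. Both stretches are the 250 bases before the first start site in RefSeq's table (GRCh38.p14), written 5′ to 3′ along the gene. The table matched 7 of the 8 members, all but LOXL2. Capitals mark ACGTG, a form of the core of a hypoxia response element, on either strand (CACGT where it lies on the opposite strand). The form GCGTG was not searched and is not marked.
LOX promoter, chr5:122078260-122078509, minus strand: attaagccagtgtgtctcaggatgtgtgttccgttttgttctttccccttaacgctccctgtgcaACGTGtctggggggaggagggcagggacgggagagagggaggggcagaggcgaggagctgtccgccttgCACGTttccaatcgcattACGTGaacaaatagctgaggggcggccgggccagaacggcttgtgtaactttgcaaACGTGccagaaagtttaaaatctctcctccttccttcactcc
PLOD2 promoter, chr3:146161185-146161434, minus strand: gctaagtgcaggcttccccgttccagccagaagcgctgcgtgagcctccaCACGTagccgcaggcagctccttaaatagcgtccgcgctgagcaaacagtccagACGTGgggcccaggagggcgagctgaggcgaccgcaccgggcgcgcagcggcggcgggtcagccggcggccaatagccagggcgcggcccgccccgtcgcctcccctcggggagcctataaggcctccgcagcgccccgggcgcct

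The LOX window held 4 ACGTG matches, with first bases 185, 116, 98 and 42 bases upstream of the start, and the PLOD2 window held 2, at 200 and 146 bases. Of 35116 promoter windows of the same length, 18.5% held at least 1 match on either strand, 7.52% at least 2 and 0.669% at least 4. The windows of the other 2 LOX start sites held 1 match each. The first windows of LOXL1, LOXL3, LOXL4, PLOD1 and PLOD3 held 0 matches to ACGTG, the only form of this core searched. The AP-1 motif TGANTCA, searched on both strands, was in none of the windows of these 7 members and in 6.57% of all. The TEAD motif GGAATG was found in the first LOXL3 window, with 2 matches, where 11.9% of all windows held at least 1 and 0.940% at least 2. CAGAC, the core of a SMAD element, had 1 match each in the first LOX, LOXL1 and PLOD2 windows and at least 1 in 38.0% of all. A match of letters is a description and not a binding site.

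Total expected counts per library (RSEM's estimated reads per gene, summed) lay between 14654628 and 19495162, and the detection floor of 3 counts lay at 0.153 to 0.201 CPM (counts divided by the TMM-scaled library size). MEX3A stood at 30.0% and 40.04% of the control with hairpins 1 and 2 in PA-1, and at 51.2% and 42.3% in TOV21G. Its edgeR log2 fold changes were -1.51 (SE 0.28) in PA-1 and -1.10 (SE 0.29) in TOV21G. Neither passed after adjustment by edgeR (unadjusted p = 0.00288 and 0.0118). DESeq2 called MEX3A in PA-1 (adjusted p = 0.0478) and not in TOV21G (adjusted p = 0.164). A gene that did not pass below is therefore not shown to be unchanged. The 7 teratocarcinoma markers summed to between 3235 and 4144 TPM (a relative level per transcript length) in PA-1 and to at most 54.6 TPM in TOV21G. With both hairpins in PA-1, 2 of the 7 were higher and 3 lower, where 33.8% and 34% of all genes were. POU5F1 had 2106 and 2395 TPM with hairpins 1 and 2 against 891 TPM in the PA-1 control. LIN28A had 1118 and 1242 TPM against 1740 TPM there. The 7 clear cell carcinoma markers summed to 1693 and 1507 TPM with hairpins 1 and 2 against 343 TPM in the PA-1 control, where 4 of them were under 1 TPM in each library, and to 3080 and 5926 TPM against 9847 TPM in the TOV21G control. SPP1, a secreted phosphoprotein, made up most of these sums, and DESeq2 called it higher in PA-1. Summed fibroblast markers were 145 and 193 TPM with hairpins 1 and 2 against 91.6 TPM in the PA-1 control, and 44.2 and 68.7 TPM against 5.87 TPM in the TOV21G control. COL1A1, itself a fibrillar collagen, made up most of the TOV21G sums with hairpins, and COL1A1 and THY1 most of the PA-1 sums, while THY1 stayed under 1 TPM in TOV21G and FAP, COL3A1 and LUM were under 1 TPM in all 6 libraries. The fibroblast marker DCN had 2.99 and 4.16 TPM with hairpins 1 and 2 against 1.99 TPM in the TOV21G control and at most 0.030 TPM in PA-1. PDGFRA and PDGFRB reached 9.19 and 5.78 TPM in PA-1 and stayed under 1 TPM in TOV21G. Leukocyte markers summed to at most 9.46 TPM in any library, and endothelial markers to between 82.7 and 130 TPM in PA-1 and at most 1.2 TPM in TOV21G. The nuclear RNA NEAT1 stood at 270 and 273 CPM with hairpins 1 and 2 against 119 CPM in the PA-1 control, and at 1132 and 1067 CPM against 361 CPM in the TOV21G control. MALAT1, another nuclear RNA, had 1302 and 1112 CPM with hairpins 1 and 2 against 909 CPM in the PA-1 control. In TOV21G it had 9423 and 18444 CPM against 4313 CPM in the control. MALAT1 thus differed between all 3 TOV21G libraries, while NEAT1 was close between the 2 TOV21G hairpins. The part of these shifts in the results below was not tested.

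LOX, the founding lysyl oxidase, was nearly silent in PA-1 control cells and well expressed in the other 5 libraries. In PA-1 it had 15.2 TPM with hairpin 1 and 45.6 TPM with hairpin 2, against 0.950 TPM in the control. In TOV21G it had 28.3 and 14.01 TPM with hairpins 1 and 2, against 24.6 TPM in the control. Both depleted PA-1 libraries thus lay far above their control, whereas in TOV21G hairpin 1 was close to the control and hairpin 2 below it. In such bulk libraries, a change in the number of expressing cells and a change in RNA per cell cannot be told apart.

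Behind these levels were 507 and 1960 LOX reads in the depleted PA-1 libraries against 28 in the control. The exact 95% Poisson interval of the control count was 18.6 to 40.5 reads, which covers counting error only. On the CPM scale the ratio to the control was 17.5 with hairpin 1 and 56.6 with hairpin 2 in PA-1, and 1.008 and 0.544 in TOV21G. Hairpin 2 gave 3.24 times the LOX level of hairpin 1 in PA-1 and 0.540 times in TOV21G. The PA-1 levels with hairpins, 30.7 and 99.6 CPM, lay just under and above the range of 33.0 to 61.2 CPM seen in the 3 TOV21G libraries. In log2 CPM the differences from the control were 4.03 and 5.73 in PA-1 and 0.01 and -0.88 in TOV21G.

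RSEM's abundance-weighted LOX transcript length was 4902 and 4993 bases with hairpins 1 and 2 against 4287 bases in the PA-1 control, where it rested on 28 reads. In TOV21G it was 4998 and 4742 bases against 5013 bases. Per length, the PA-1 ratios were therefore smaller than in CPM, at 16.03 and 48.0 in TPM. On chromosome 5 the LOX gene spans 122063195 to 122078259 (GRCh38.p14, minus strand), inside the span of SRFBP1, an overlapping coding gene. SRFBP1 had 436 and 549 expected counts with PA-1 hairpins 1 and 2 against 456 in the control. These counts are not scaled for depth. The hairpin 2 library was the deepest, with 19495162 total expected counts against 15769163 with hairpin 1 and 15861565 in the control.

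**Figure D1:**
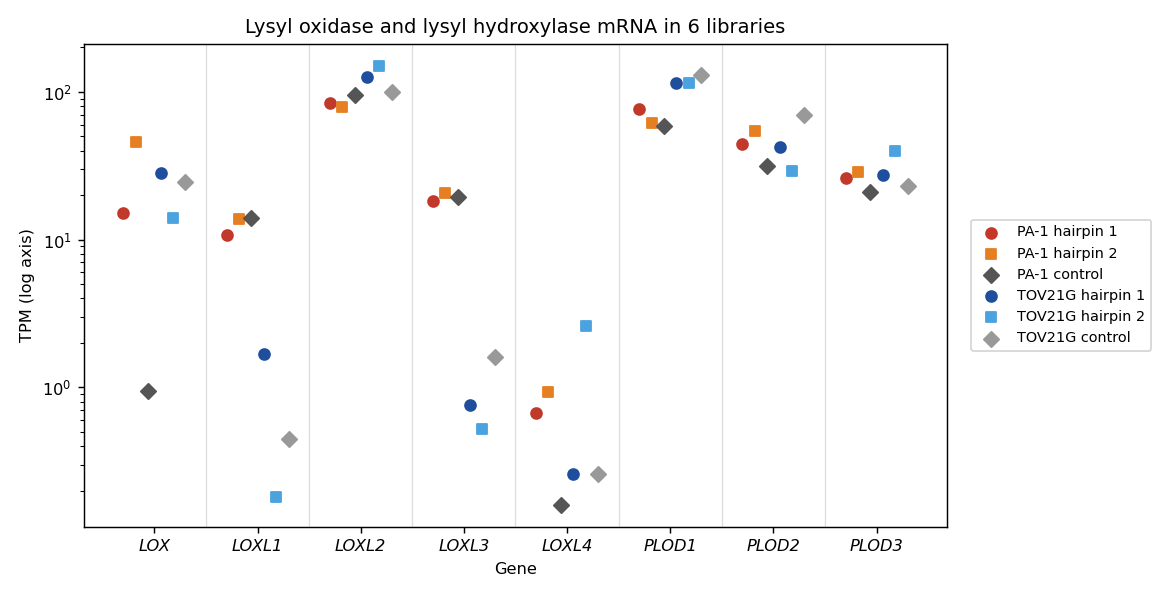
TPM (log axis) of the 8 genes in each library, with circles for hairpin 1, squares for hairpin 2 and diamonds for the control of each line. LOX stands at 15.2 and 45.6 TPM with PA-1 hairpins 1 and 2 against 0.950 TPM in the PA-1 control, while LOXL1 and LOXL3 separate the lines.

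LOXL2, which cross-links the basement membrane collagen IV, was the most abundant lysyl oxidase in all 6 libraries. It had 84.1 and 79.5 TPM with hairpins 1 and 2 against 95.7 TPM in the PA-1 control. In TOV21G the values were 125 and 150 TPM against 99.5 TPM in the control. The hairpin libraries thus lay below the control in PA-1 and above it in TOV21G. Neither difference passed edgeR's quasi-likelihood test, with a log2 fold change of -0.26 (SE 0.28, adjusted p = 1) in PA-1 and 0.40 (SE 0.29, adjusted p = 0.688) in TOV21G.

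LOXL1, the oxidase tied to elastic fibres, was detected mainly in PA-1. It had 10.7 and 13.8 TPM with hairpins 1 and 2 and 14.1 TPM in the control there, against 1.69, 0.180 and 0.450 TPM in the corresponding TOV21G libraries. The TOV21G values rested on 14, 3 and 6 reads, whose exact 95% Poisson intervals overlap, which is not a test. Hairpin 1 lay above and hairpin 2 below the control there. By edgeR the TOV21G log2 fold change of 0.52 (SE 0.95, adjusted p = 0.884) did not pass. The antisense RNA LOXL1-AS1 overlaps one end of LOXL1. It had 226 and 242 expected counts, not scaled for depth, with PA-1 hairpins 1 and 2 against 122 in the control. The strand setting of the counting is not given in the sources used here, and reads of the pair could have been shared. Both genes had whole expected counts in every library, so no reads divided between them are seen.

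LOXL3, another secreted member, also marked PA-1, with 18.3 and 20.6 TPM with hairpins 1 and 2 against 19.4 TPM in the control. Hairpin 1 lay below and hairpin 2 above the control there. In TOV21G it had 0.760 and 0.520 TPM against 1.61 TPM in the control, from 20.2, 14.2 and 44.0 expected counts. Both hairpins were lower there by more than 2-fold, at 0.461 and 0.329 of the control in CPM. The log2 fold change of -1.33 (SE 0.37) in TOV21G did not pass after adjustment by edgeR (unadjusted p = 0.0141, adjusted p = 0.427). The weighted LOXL3 transcript was 3004 to 3078 bases long in PA-1 and 3676 to 4098 bases in TOV21G. RefSeq lists 2 LOXL3 start sites, on the minus strand of chromosome 2, and the coding genes DOK1 and HTRA2 overlap its span. HTRA2 had 236 and 296 expected counts with TOV21G hairpins 1 and 2 against 431 in the control. DOK1 had 38 and 19 against 77 there. In PA-1 HTRA2 had 220 and 248 against 208, and DOK1 166 and 200 against 198. These counts are not scaled for depth. LOXL3 and HTRA2 had fractional expected counts, so reads of the pair could have been divided. The part of this in the LOXL3 difference was not tested.

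LOXL4 was scarce, with at most 2.61 TPM in any library. It had 16 and 28 reads with hairpins 1 and 2 against 4 in the PA-1 control, and 6 and 68 reads against 7 in the TOV21G control. On the CPM scale that was 3.86 and 5.66 times the PA-1 control, whose 95% Poisson interval of 1.09 to 10.2 reads touches that of hairpin 1 (9.15 to 26.0). In TOV21G the ratios were 0.870 and 10.0, so the high value belonged to hairpin 2 alone. The edgeR log2 fold changes were 2.22 (SE 1.67, adjusted p = 1) in PA-1 and 2.43 (SE 1.56, adjusted p = 0.654) in TOV21G. The TOV21G value was -0.19 without TOV21G hairpin 2 and 3.31 without TOV21G hairpin 1. Each of these fits had 1 depleted TOV21G library, with the spread taken from PA-1.

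Summed over the 5 genes, PA-1 had 129 and 160 TPM with hairpins 1 and 2 against 130 TPM in the control, and TOV21G had 156 and 167 TPM against 126 TPM. LOX accounted for 11.8% and 28.4% of the sum with hairpins 1 and 2 against 0.729% in the PA-1 control. LOXL2 accounted for 65.2% and 49.6% against 73.4%. In TOV21G LOX made up 18.1% and 8.38% against 19.5%, and LOXL2 80.2% and 89.6% against 78.7%. The PA-1 sum with hairpin 1 was close to that of the control, and LOXL1, LOXL2 and LOXL3 were all lower in that library.

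**Figure D2:**
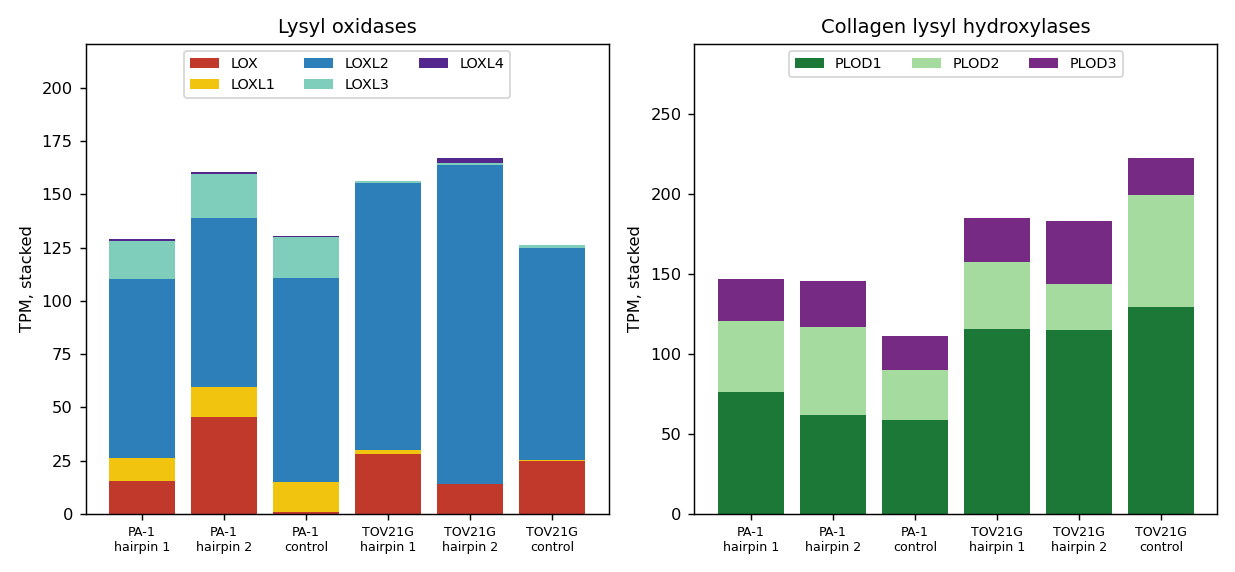
Stacked TPM of the 5 lysyl oxidases (left) and the 3 lysyl hydroxylases (right) in each library. LOX takes 11.8% and 28.4% of the oxidase sum with PA-1 hairpins 1 and 2 against 0.729% in the control, and PLOD2 takes 22.7% and 15.8% of the hydroxylase sum in TOV21G with hairpins 1 and 2 against 31.6% in the control.

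PLOD2, the hydroxylase of the telopeptide lysines and so of the stiffer pyridinoline cross-links, ran in opposite directions in the 2 lines. In PA-1 it had 44.6 and 54.6 TPM with hairpins 1 and 2 against 31.4 TPM in the control. In TOV21G it had 42.0 and 29.0 TPM against 70.3 TPM in the control. Every depleted library was thus above its control in PA-1 and below it in TOV21G, and the lower PA-1 hairpin library lay just above the higher TOV21G one.

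On the CPM scale PLOD2 stood at 1.34 and 1.75 times the control with PA-1 hairpins 1 and 2, and at 0.528 and 0.420 times with the TOV21G hairpins. By edgeR the log2 fold change was 0.63 (SE 0.31, adjusted p = 1) in PA-1 and -1.08 (SE 0.29, adjusted p = 0.422) in TOV21G, with unadjusted p values of 0.0933 and 0.0127. Without TOV21G hairpin 1 the TOV21G value was -1.25, again with 1 depleted TOV21G library and the spread taken from PA-1. The difference between lines, the PA-1 effect minus the TOV21G effect, was 1.71 (SE 0.42) and did not pass (unadjusted p = 0.00954, adjusted p = 1). Over all genes 7.29% were higher with both hairpins in PA-1 and lower with both in TOV21G.

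PLOD1, the hydroxylase of helical lysines, was the most abundant lysyl hydroxylase in all 6 libraries. It had 76.1 and 62.0 TPM with hairpins 1 and 2 against 58.7 TPM in the PA-1 control, and 115 and 115 TPM against 129 TPM in the TOV21G control. PLOD3, which also carries glycosyltransferase activity, had 26.3 and 28.7 TPM against 21.0 TPM in PA-1. In TOV21G PLOD3 had 27.3 and 39.5 TPM against 23.1 TPM. The depleted libraries lay above the control for PLOD3 in both lines and for PLOD1 in PA-1, and below it for PLOD1 in TOV21G. None of these passed edgeR, with log2 fold changes of 0.19 (SE 0.25) and -0.25 (SE 0.25) for PLOD1 and of 0.36 (SE 0.38) and 0.47 (SE 0.38) for PLOD3 in PA-1 and TOV21G, and adjusted p values of 1, 0.77, 1 and 0.716. Summed over the 3 genes, the hydroxylases had 147 and 145 TPM with hairpins 1 and 2 against 111 TPM in the PA-1 control, and 185 and 183 TPM against 223 TPM in the TOV21G control.

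**Figure D3:**
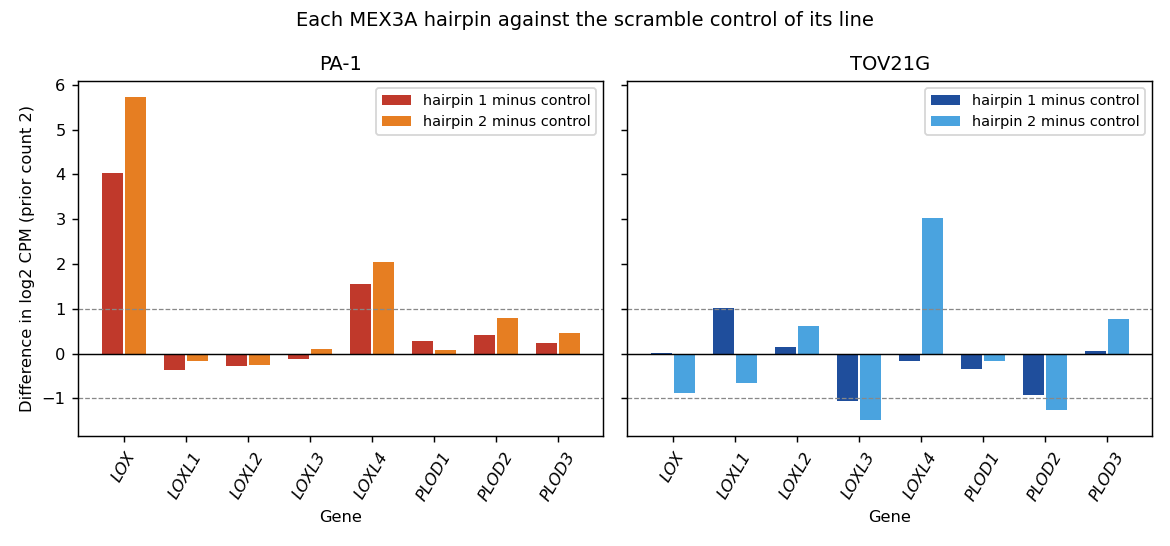
Difference in log2 CPM (prior count 2) of each hairpin library from the control of its line for the 8 genes, with dashed lines at a 2-fold difference. LOX differs by 4.03 and 5.73 in PA-1 and by 0.01 and -0.88 in TOV21G, and PLOD2 by 0.42 and 0.81 in PA-1 and by -0.92 and -1.25 in TOV21G.

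Counted over the 7 members other than LOX, edgeR called 0 in PA-1 and 0 in TOV21G at an adjusted p under 0.05, where it called 0% of all 16855 genes in either line. DESeq2 called 0 of the 7 in PA-1 and 0 of the 6 to which it gave an adjusted p in TOV21G (not LOXL4), against 0.219% of genes called higher and 0.0129% lower in PA-1, and 0.786% and 1.1% in TOV21G. At an unadjusted p under 0.05 by edgeR there were 0 of 7 in PA-1, against 2.57% of all genes. In TOV21G there were 2, LOXL3 and PLOD2, against 9.56%. At least 2-fold higher than the control with both hairpins in PA-1 were LOX, by its choice, and LOXL4, where 3.36% of all genes were, and 0 members were 2-fold lower there against 0.682%. From TPM with a pseudocount of 0.5, LOXL4 with PA-1 hairpin 1 differed by 0.83 on the log2 scale and was under 2-fold. At least 2-fold lower with both hairpins in TOV21G was LOXL3, where 3.36% of all genes were, and 0 members were 2-fold higher there against 4.26%. LOXL3 with TOV21G hairpin 1 was under 2-fold at a prior count of 5 (-0.96) and from TPM with a pseudocount of 0.5 (-0.74). For the difference between lines edgeR called 0% of all genes and 0 of the 7 members, and DESeq2 called 0 of them against 0.0892% of genes higher and 0.0412% lower. At an unadjusted p under 0.05 by edgeR stood PLOD2 and LOXL3 (1.33, SE 0.49, adjusted p = 1), where 3.81% of all genes did. LOXL2 was lower with both hairpins in PA-1 and higher with both in TOV21G, as were 7.39% of all genes.

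Between the control libraries the lines differed in several of these enzymes. There PA-1 had 27.0 times the LOXL1 and 8.52 times the LOXL3 level of TOV21G in CPM. PLOD1 stood at 0.401, PLOD2 at 0.393 and LOX at 0.0290 of the TOV21G level. LOXL1 and LOXL3 were thus at least 2-fold higher, where 20.3% of all genes were, and PLOD1, PLOD2 and, by its choice, LOX at least 2-fold lower, where 22% were. By edgeR LOXL1 (log2 fold change 4.73, SE 0.99, adjusted p = 0.0376) and LOXL3 (3.09, SE 0.41, adjusted p = 0.0122) were called higher and PLOD1 lower (-1.32, SE 0.29, adjusted p = 0.0446). Genes called higher were 7.29% and genes called lower 7.59% of all, and 32.9% of genes had an unadjusted p under 0.05, PLOD2 among them. PLOD2 did not pass by edgeR (-1.35, SE 0.35, adjusted p = 0.0637) and did by DESeq2 (adjusted p = 0.0187), which called 11.1% of genes higher and 11.5% lower. LOXL2 (-0.23, SE 0.33), PLOD3 (-0.32, SE 0.43) and LOXL4 (-0.83, SE 1.94) did not pass, with adjusted p values of 0.664, 0.652 and 0.803. Each line had 1 control library here, assumed to vary as the hairpins did. These calls depended on the libraries fitted. Without PA-1 hairpin 1 or 2, LOXL1 and PLOD1 lost their calls, at a biological coefficient of variation of 0.379. Without TOV21G hairpin 1 or 2, PLOD2 gained a call, at a coefficient of 0.163. With all libraries the coefficient was 0.295. The growth media differed with the line, and line and medium cannot be told apart.

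The collagens are the substrates of these enzymes. Of 11 fibrillar collagen genes 9 passed the filter, and 8 were higher and 1 lower with both hairpins in PA-1, where 33.8% of all genes were higher and 34% lower. In TOV21G 5 were higher and 1 lower, where 31.3% and 31.9% of all genes were. COL5A2 had 115 and 171 TPM with hairpins 1 and 2 against 24.3 TPM in the PA-1 control, and DESeq2 called it. COL1A1, the main chain of collagen I, had 73.9 and 47.4 TPM with hairpins 1 and 2 against 34.2 TPM in the PA-1 control, and 40.5 and 63.6 TPM against 3.10 TPM in the TOV21G control, where DESeq2 called it. The gene also counts among the fibroblast markers above. Of the network and other collagens, 7 of 11 were higher and 2 lower with both hairpins in PA-1, and 5 higher and 0 lower in TOV21G. DESeq2 called 1 of the 11 higher in PA-1, COL8A1, and 0 in TOV21G. COL8A1 had 4.59 and 39.5 TPM with hairpins 1 and 2 against 0.230 TPM in the PA-1 control. The collagen IV chain COL4A1, a LOXL2 substrate family, had 303 and 552 TPM with hairpins 1 and 2 against 150 TPM in the TOV21G control. The median differences of hairpins 1 and 2 from the control in log2 CPM were 0.80 and 0.48 for fibrillar collagens in PA-1, and 0.66 and 1.10 in TOV21G. For the other collagens they were 0.28 and 0.43 in PA-1, and 0.43 and 1.49 in TOV21G. Over all genes these medians were 0.00 in both lines. By edgeR 0 of these genes passed in either line.

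The enzymes and chaperones that act beside the PLOD proteins in the endoplasmic reticulum numbered 16. Of these 9 were higher and 3 lower with both hairpins in PA-1, where 33.8% of all genes were higher and 34% lower. The median log2 CPM differences of hairpins 1 and 2 there were 0.06 and 0.25. In TOV21G 7 were higher and 4 lower, where 31.3% and 31.9% of all genes were, and the medians were -0.03 and 0.23. The prolyl hydroxylase P4HA2 had 11.2 and 14.7 TPM with hairpins 1 and 2 against 6.89 TPM in the PA-1 control, and 33.1 and 60.8 TPM against 22.5 TPM in the TOV21G control. P3H4, a partner of the lysyl hydroxylase complex, had 13.4 and 23.3 TPM against 30.9 TPM in the TOV21G control. None of the 16 reached 2-fold with both hairpins in either line, and none passed edgeR or DESeq2.

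The 9 genes of procollagen export had median log2 CPM differences of 0.05 and 0.0033 with hairpins 1 and 2 in PA-1, and of 0.19 and 0.86 in TOV21G. CREB3L1, a transcription factor of collagen secretion, had 5.61 and 15.9 TPM with hairpins 1 and 2 against 1.66 TPM in the TOV21G control. Copper supply genes, which load the oxidases with their metal, numbered 7 and had medians of 0.08 and 0.26 in PA-1, and of 0.05 and 0.04 in TOV21G. The copper pump of the secretory pathway, ATP7A, had 10.0 and 13.4 TPM with hairpins 1 and 2 against 8.14 TPM in TOV21G. By edgeR 0 genes of either list passed in either line.

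In the list of procollagen and LOX propeptide processing, 10 of 11 genes passed the filter. Of these 4 were higher and 3 lower with both hairpins in each line. These counts lie near the shares over all genes, 33.8% higher and 34% lower in PA-1 and 31.3% and 31.9% in TOV21G. Fibronectin (FN1), a matrix protein that binds LOX and the BMP1 protease, had 169 and 133 TPM with hairpins 1 and 2 against 42.2 TPM in the PA-1 control. In TOV21G it was low, at 1.21 and 2.14 TPM against 0.410 TPM. Periostin (POSTN), another scaffold for this cleavage, had 4.97 and 16.2 TPM against 1.94 TPM in the PA-1 control. The procollagen proteinase enhancers PCOLCE and PCOLCE2 had 5.92 and 5.51 TPM against 10.9 TPM, and 2.20 and 2.13 TPM against 6.36 TPM, in TOV21G. DESeq2 called FN1 higher in both lines. Of the elastic fibre genes 15 of 16 passed the filter, with medians of 0.04 and 0.03 for hairpins 1 and 2 in PA-1, and of 0.35 and 0.79 in TOV21G. FBLN1, a fibulin of elastic fibres, had 3.96 and 6.09 TPM against 17.95 TPM in the TOV21G control and was called lower there by DESeq2. Of the collagenases and their inhibitors, 7 of 9 passed the filter, with medians of -0.04 and 0.41 in PA-1, and of -0.10 and 0.37 in TOV21G. Of these 1 was higher and 3 lower with both hairpins in PA-1, and 2 higher and 1 lower in TOV21G. The gelatinase MMP2 had 1.95 and 3.78 TPM with hairpins 1 and 2 against 0.460 TPM in the TOV21G control, and DESeq2 called it there. By edgeR 0 genes of these 3 lists passed in either line.

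HIF targets are genes induced by low oxygen. Of 14 genes 10 were higher and 3 lower with both hairpins in PA-1, with medians of 0.34 and 0.39 for hairpins 1 and 2 in log2 CPM. In TOV21G 3 were higher and 6 lower, with medians of -0.01 and -0.76. Over all genes 33.8% were higher and 34% lower with both hairpins in PA-1, and 31.3% and 31.9% in TOV21G. In TOV21G the higher genes lay under and the lower genes over that share, which in a list of 14 genes was not tested. BNIP3, a mitophagy receptor, had 211 and 209 TPM with hairpins 1 and 2 against 132 TPM in the PA-1 control, and 197 and 97.7 TPM against 269 TPM in the TOV21G control. The oxygen sensor EGLN3 had 1.24 and 0.790 TPM against 4.43 TPM in the TOV21G control, the 1 member that DESeq2 called there. By edgeR 0 of the 14 passed in either line.

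TGF-beta targets include feedback regulators of that pathway. Of 11 genes 9 were higher and 1 lower with both hairpins in PA-1, 5 of them at least 2-fold higher, with medians of 1.29 and 1.10 for hairpins 1 and 2. In TOV21G 8 were higher and 1 lower, 4 of them at least 2-fold higher, with medians of 0.35 and 0.83. CCN2, a matricellular growth factor, had 189.9 and 229.8 TPM with hairpins 1 and 2 against 49.8 TPM in the PA-1 control. In TOV21G CCN2 was also higher with both hairpins, at 84.9 and 238.6 TPM against 39.3 TPM. PMEPA1, a feedback inhibitor of TGF-beta signalling, had 163 and 80.9 TPM against 26.9 TPM in the TOV21G control, and DESeq2 called it there. In PA-1 PMEPA1 was low and also higher with both hairpins, at 3.99 and 3.31 TPM against 1.35 TPM. SMAD7 was the 1 gene lower with both hairpins in PA-1, by -0.41 and -0.0029 in log2 CPM, so hairpin 2 was close to the control. By edgeR 0 of the 11 passed in either line, while DESeq2 called 2 higher in PA-1, against 0.219% of all genes, and 4 in TOV21G, against 0.786%. Over all genes 33.8% were higher and 34% lower with both hairpins in PA-1, and 31.3% and 31.9% in TOV21G. At least 2-fold higher with both hairpins were 3.36% in PA-1 and 4.26% in TOV21G.

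**Figure D4:**
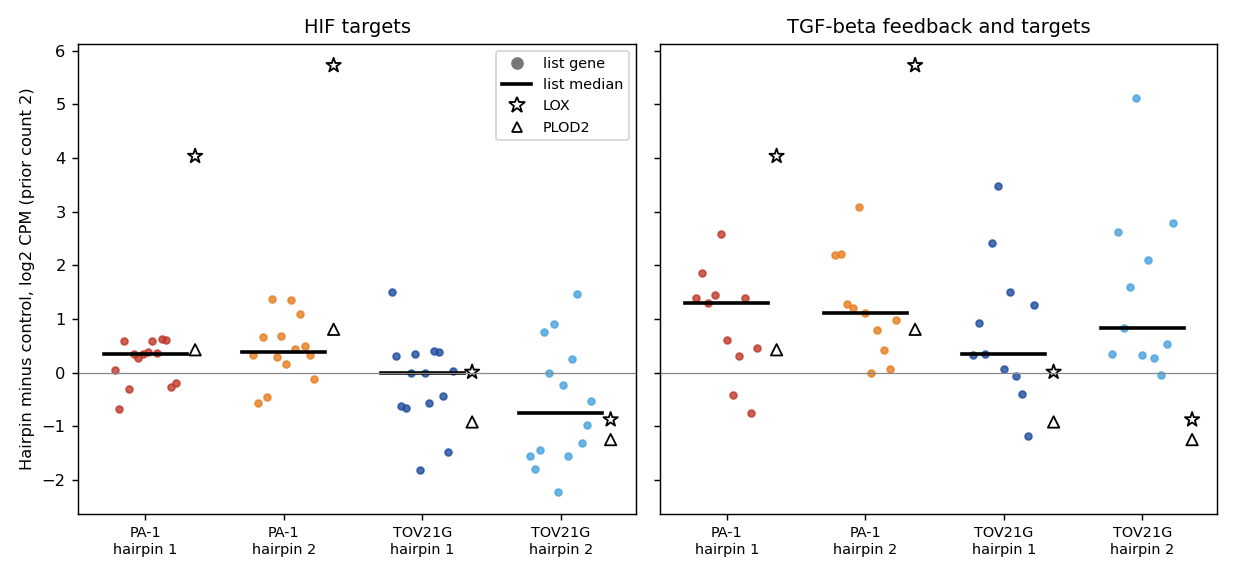
Difference in log2 CPM (prior count 2) of each hairpin library from the control of its line for 14 HIF targets (left) and 11 TGF-beta targets (right). Dots are genes, bars list medians, stars LOX and triangles PLOD2, and in TOV21G PLOD2 lies below 0 with both hairpins while the TGF-beta medians are 0.35 and 0.83.

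The genes whose levels were most like those of LOX over the 6 libraries were ranked by Pearson's r in log2 CPM among 11380 genes that reached 10 CPM in some library. They were COX11 (r = 0.99), CHST2 (0.94), COL8A1 (0.94), SLC7A6OS (0.94) and UTP11 (0.93). CHST2, a sulfotransferase, had 15.6 and 29.5 CPM with hairpins 1 and 2 against 5.60 CPM in the PA-1 control, and 15.5 and 11.7 CPM against 19.7 CPM in TOV21G. The network collagen COL8A1 had 10.5 and 96.3 CPM against 0.566 CPM in PA-1, and 35.3 and 80.6 CPM against 51.7 CPM in TOV21G. COX11, a copper chaperone of cytochrome oxidase, varied on a far narrower scale, with 94.5 and 98.8 CPM against 81.0 CPM in PA-1 and 99.5 and 94.3 CPM against 99.5 CPM in TOV21G. The genes most like PLOD2 were NRN1 (r = 0.96), LOC112694756 (0.95), SPIN1 (0.95), ZC3HAV1 (0.94) and SIPA1 (0.94). With 6 points that share 2 lines and 2 controls, these values only describe likeness.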

How the data were processed

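The members and gene lists were chosen with earlier results of these data known. Per the file headers, the authors deposited RSEM gene tables with expected counts, TPM, FPKM (not used here) and weighted transcript lengths in bases. Per the submitters' processing notes, cutadapt 1.12, STAR 2.5.3a, RSEM 1.2.31 and edgeR 3.26.8 were used with hg38, and the strand setting is not given in the sources used here. Libraries were poly(A)-selected, per the labels.

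Expected counts were rounded and analysed in R 4.3.3 with edgeR 4.0.16: filterByExpr on 4 groups (line by hairpin target), TMM, and quasi-likelihood F tests with 2 residual degrees of freedom (biological coefficient of variation 0.295), adjusted by Benjamini and Hochberg over 16855 genes. Within each line the 2 hairpins, which are different reagents, supplied the spread, and the single controls were assumed to vary alike. Standard errors were derived from the log2 fold change and its F statistic. DESeq2 1.42.0, other scalings, filters, prior counts and left-out libraries were alternatives. Named genes were the 8 members, MEX3A, up to 3 genes per list and line ranked by the weaker of their hairpin differences, and 5 genes most like LOX and PLOD2. COL1A1 and PMEPA1 in PA-1 and CCN2 in TOV21G were named for comparison with the other line after their values were seen. SMAD7 in PA-1 was also named after its values were seen. Lists share members (P4HA1, P4HA2 and LTBP2). Some listed genes are not reported here by name.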

Additional observations from a re-analysis of the deposited data

Results flagged for a closer look

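For 3 members both hairpins of one line lay on the opposite side of the control from both hairpins of the other, which 7.29% (higher in PA-1, lower in TOV21G) and 7.39% (lower in PA-1, higher in TOV21G) of all genes also showed. PLOD2 was higher in PA-1 and lower in TOV21G, with a PA-1 effect minus TOV21G effect of 1.71 (SE 0.42, edgeR adjusted p = 1). PLOD1 went the same way by less, with 0.44 (SE 0.35, edgeR adjusted p = 1). LOXL2 was lower in PA-1 and higher in TOV21G, with -0.66 (SE 0.40, edgeR adjusted p = 1). None of these differences passed the test.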

How the results depend on the processing

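DESeq2's Wald test called 36 genes in PA-1 and 226 in TOV21G, and 19 for the difference between lines, where edgeR called 0 in each. Hairpin numbers name reagents and do not pair samples. With a replicate block of hairpin number, edgeR called 5 genes in TOV21G and 4149 between the controls (2508 without it), PLOD2 passed between the controls (adjusted p = 0.0229), and the LOXL4 difference between lines turned to 0.36 (-0.21 without it). The LOXL4 log2 fold change in PA-1 was 1.25 with the replicate block and 2.22 without it. The change from hairpin 1 to hairpin 2 correlated between lines with r = 0.31 across 14279 genes, which are not independent replicates. Leaving out 1 hairpin library at a time gave 0 to 0 genes in PA-1 and 0 to 1641 in TOV21G (1641 without hairpin 1), 0 to 1 for the difference and 1359 to 6380 between controls. The biological coefficient of variation was 0.163 with 1 TOV21G hairpin left out and 0.379 with 1 PA-1 hairpin left out. Over the same fits the log2 fold change ranged from -0.12 to 0.10 for LOXL3 in PA-1. In TOV21G it ranged from -0.88 to 0.015 for LOX, from -0.93 to 1.23 for LOXL1 and from -0.19 to 3.31 for LOXL4. The difference between lines ranged from -1.50 to 0.66 for LOXL1, from -1.08 to 2.41 for LOXL4 and from -0.43 to 0.29 for PLOD3. Genes at least 2-fold apart with both hairpins numbered 681 in PA-1 and 1285 in TOV21G. They numbered 424 in PA-1 with a prior count of 5, 1135 and 1971 in PA-1 and TOV21G without the filter on low counts, and 356 and 708 from TPM with a pseudocount of 0.5. Of the log2 fold changes with an adjusted p of the 7 members other than LOX, refitted under the other scalings, filters, tests and sets of libraries, 219 kept their direction and side of the threshold, 8 reversed, 6 gained and 4 lost a call. Depth limits LOXL1 in TOV21G and LOXL4 in both lines most.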
